A study of Arabidopsis thaliana with 4 samples.

Results

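The genes described here are 40 Arabidopsis thaliana loci of the phenylpropanoid pathway: the enzymes of general phenylpropanoid, lignin, flavonol and anthocyanin synthesis, with their MYB and bHLH regulators. They were chosen for their place in the pathway and found through the locus name of each non-control probe. That rule uses no measured value, but the members were chosen with earlier results of these data known. All 40 had a probe, out of 25665 loci with probes on the array. Filters on brightness and on the number of usable ratios left 35 of the 40, and 19314 loci in all. The hsfb1 hsfb2b double mutant, in the Columbia-0 ecotype, was compared with wild-type Columbia-0. The products of HSFB1 and HSFB2B belong to class B of the heat shock factors and are known as repressors of transcription. The labels do not give the alleles or the kind of mutation. Seedlings of both genotypes were 5 d old, had grown together on the same plate at 23 °C (16 h light, 8 h dark, 2% sucrose), and were harvested after the plate had spent 30 min in water at 32 °C. Each of 4 two-colour oligonucleotide arrays carried RNA of both genotypes from 1 plate and is a biological replicate per the labels. Cy3 marked the mutant RNA on replicates 1 and 3, and Cy5 marked it on replicates 2 and 4. Both genotypes were heated and unheated seedlings were not analysed here, so each ratio compares genotypes in heat and not a response to heat.

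Phenylpropanoid metabolism begins when phenylalanine ammonia-lyase (PAL) turns phenylalanine into cinnamate, which C4H and 4CL convert into p-coumaroyl-CoA. That intermediate is the branch point: HCT and C3'H lead it towards monolignols, the units of lignin that stiffen xylem walls and seal the Casparian strip of the root, whereas chalcone synthase (CHS) leads it into flavonoids. Flavonols shield tissue from ultraviolet light, anthocyanins colour seedlings under stress, and MYB proteins activate or repress the separate branches.

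The mutated genes were checked first. HSFB1 (AT4G36990) had signals of 633 to 769.8 units in the double mutant and 35265 to 44206 in wild type, and HSFB2B (AT4G11660) had 203 to 371 in the double mutant and 6477 to 7713 in wild type. Neither pair of ranges overlapped. Their log2 ratios of double mutant over wild type were -5.79 ± 0.03 and -4.68 ± 0.07 (SE, n = 4 arrays). Over all genes, 3208 were higher and 2539 lower at a limma adjusted p under 0.05, a share of 55.8% higher among those called. That share was 45.5% with median centring in place of loess, 68.0% without a gene-wise dye term and 79.9% in the deposited series values as given. In each channel 58.7% to 60.9% of non-control spots stood well above background, and none was saturated. Precision is limited by the number of arrays. Across 18644 genes, which share arrays and are not replicates, Pearson correlations of the ratios were 0.803 and 0.795 for the array pairs with the mutant in the same dye, and 0.346 to 0.494 for the other pairs. Markers of seedling tissues were checked as well. All 7 root markers and all 6 green tissue markers were measured, whereas 5 of 7 seed and seed coat markers were too dim to test.

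Expression of the pathway differed between the genotypes by small amounts and in both directions. Of the 35 members tested, 15 passed the limma threshold of an adjusted p under 0.05, or 42.9%, against 29.8% of all genes tested. Without a dye term in the fit, 1 of the 35 passed as higher and 2 as lower, and 1826 of 19314 genes passed. The larger share among the members was thus not seen without that term. Counts of calls, of members and of all genes alike, may hold more false calls than the threshold states, since the false share in simulated data depended on how gene variances were drawn. The 6 members that were higher in the double mutant made up 17.1% of those tested, against 16.6% of all genes. The 9 that were lower made up 25.7%, against 13.1% of all genes. The median log2 ratio was -0.05 over the members and 0.00065 over all genes, and the median absolute log2 ratio was 0.12 over the members and 0.07 over all genes. Only 4 members both passed and differed by at least 0.3 on the log2 scale (11.4%, against 6.37% of all genes): MYB7, MYB4 and CCR2, which were higher, and F5H1, which was lower. No member differed 2-fold. The count of 4 holds for the reported processing. With Feature Extraction's processed signals DFR (-0.63), LDOX (-0.58), 4CL2 (-0.48), UGT75C1 (-0.47) and UGT79B1 (-0.37) also passed with differences beyond 0.3. The share of all genes under that setting is not given here. In whole seedlings, fewer cells of a type and less RNA per cell cannot be told apart, and this holds for every ratio given here.

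The signals of the genotypes overlapped for most members. For 4 of the 35 tested members (CCR2, MYB4, F5H1 and COMT1) the 4 mutant signals did not overlap the 4 wild-type signals, and 10.7% of all genes tested were separated in this way. The array itself pairs the genotypes, so the ratio within an array is the tighter measure. Of the 33 members with ratios on all 4 arrays, 15 had the same sign on every array, and 10 of these 15 passed the threshold, 4 higher and 6 lower. The matching shares of all genes are not given here, so these counts describe the members alone. The plot of log2 ratios by array shows the spread behind each fitted value.

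**Figure D1:**
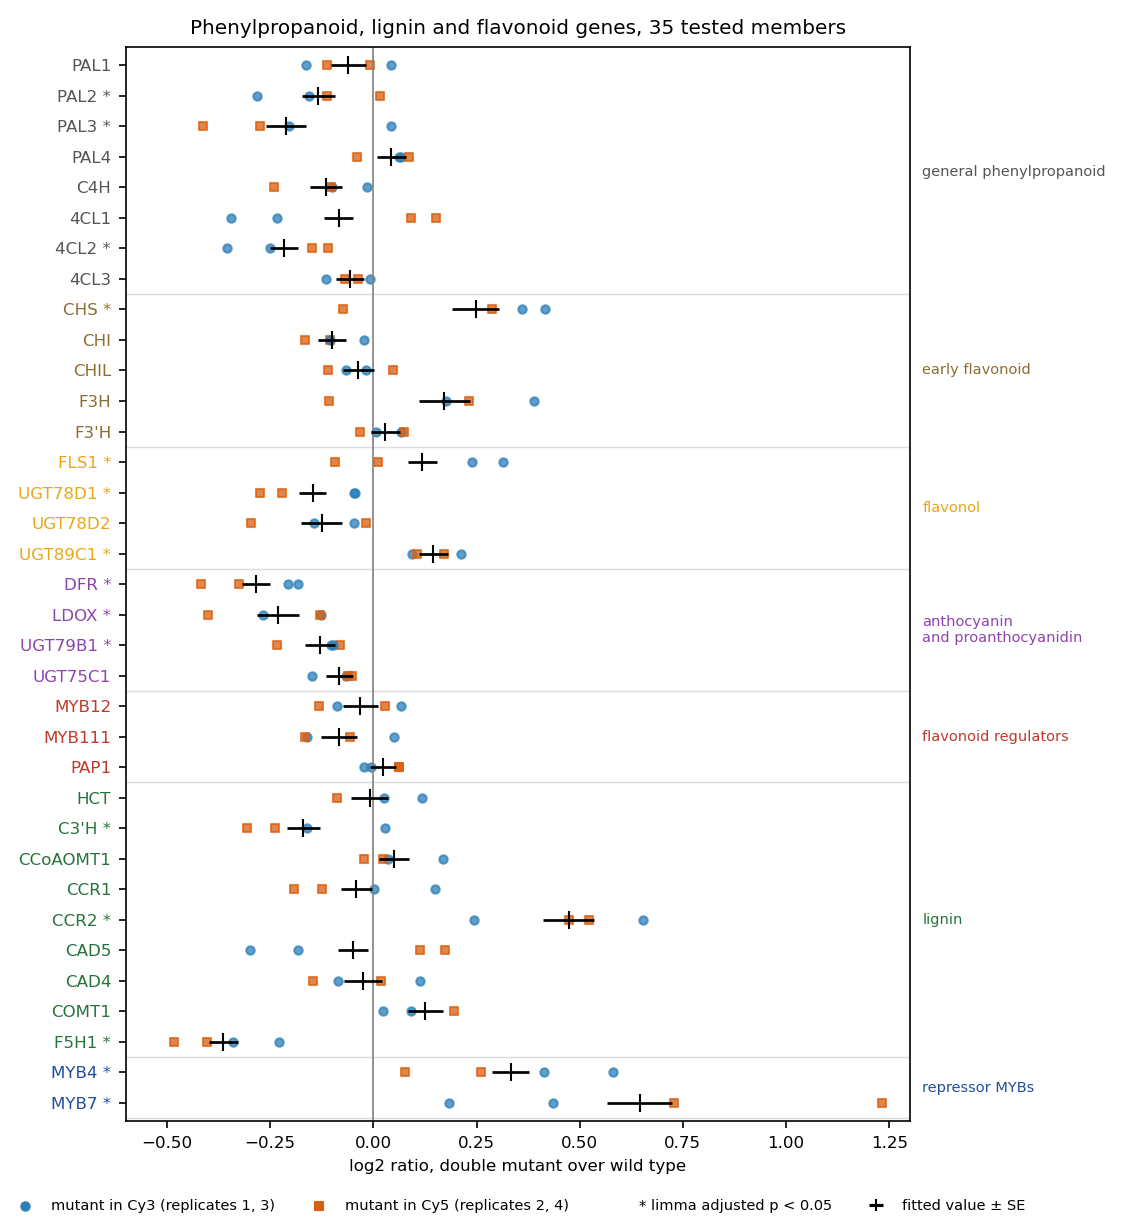
Log2 ratio of double mutant over wild type (x axis) for each of the 35 tested members (rows, grouped by branch). Circles are arrays with the mutant in Cy3 and squares arrays with the mutant in Cy5, black ticks with bars are fitted values with their standard errors, and an asterisk marks the 15 members with an adjusted p under 0.05. MYB7, MYB4 and CCR2 lie to the right of 0 on every array, and F5H1 and the 4 anthocyanin genes to the left.

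The strongest rise was in the repressor MYBs. MYB4 (AT4G38620) and MYB7 (AT2G16720) are R2R3-MYB proteins of the same subgroup. MYB4 is known to repress C4H and sinapate ester synthesis, and MYB7 to repress flavonoid genes. Both passed the threshold as higher, as did 16.6% of all genes. Their median log2 ratio was 0.49, against 0.00065 over all genes.

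MYB7 had signals of 1352, 1649, 1110.2 and 1589 units on replicates 1 to 4 in the double mutant, against 1191, 995, 821 and 676 in wild type. The mutant was the higher of the pair on every array, but the lowest mutant signal, on replicate 3, lay below the highest wild-type signal, on replicate 1. The array log2 ratios were 0.18, 0.73, 0.44 and 1.23, which gave a fitted value of 0.65 ± 0.08 (SE, n = 4 arrays), or 1.56-fold higher, with an adjusted p of 0.0013 in limma. The gene-wise dye effect also passed for MYB7. The mean ratio was 0.31 on the arrays with the mutant in Cy3 and 0.98 on those with it in Cy5.

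MYB4 had signals of 7571, 5926, 6479.5 and 5808 units in the double mutant, against 5689, 5620.0, 4329.9 and 4851 in wild type. The ranges did not overlap, and the smallest gap within an array was on replicate 2. The array log2 ratios were 0.41, 0.08, 0.58 and 0.26, with a fitted value of 0.33 ± 0.04 (SE, n = 4 arrays), 1.26-fold higher, at an adjusted p of 0.0020 in limma. The dye effect passed here too and ran the other way: arrays with the mutant in Cy3 averaged 0.50 and those with it in Cy5 averaged 0.17. Without a dye term in the fit, MYB4 and MYB7 kept their estimates but missed the threshold (limma adjusted p = 0.052 and 0.050). The difference between the ratios of MYB7 and MYB4 followed the dye orientation, at -0.23 and -0.15 on replicates 1 and 3 and at 0.65 and 0.97 on replicates 2 and 4.

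**Figure D2:**
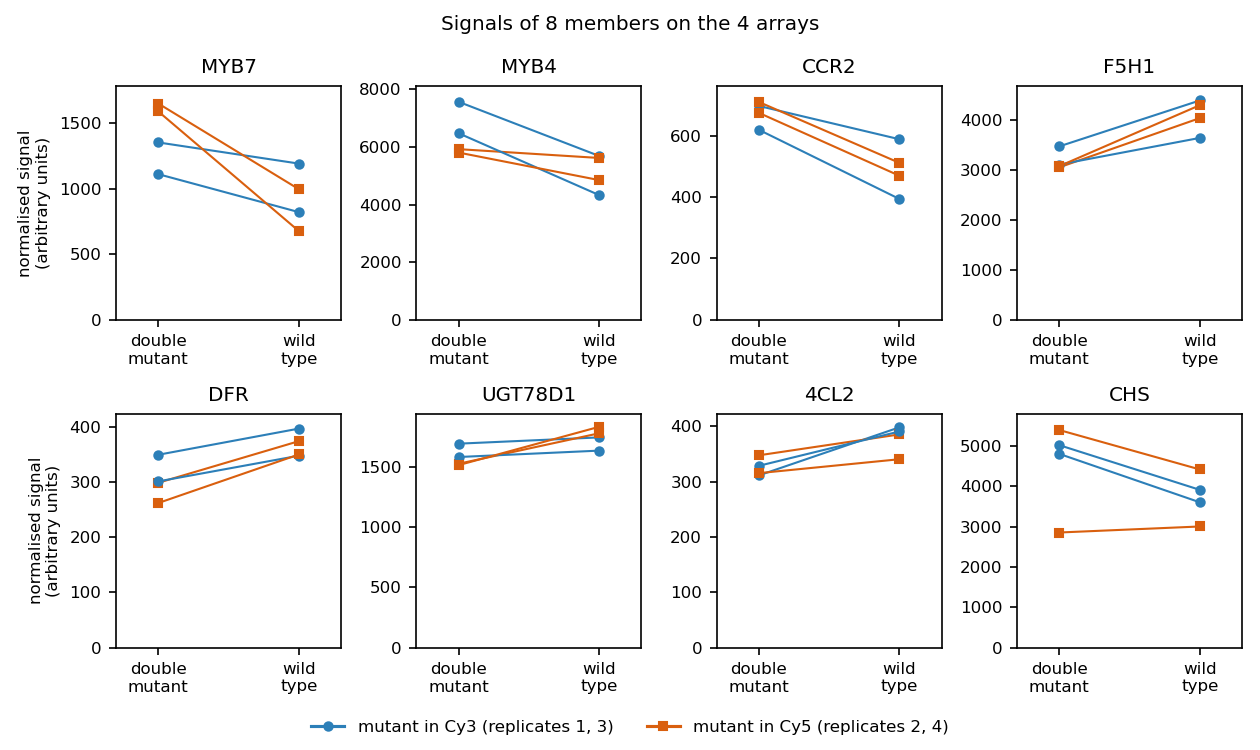
Normalised signal in arbitrary units (y axis, from 0) of 8 members in the double mutant (left) and wild type (right), with a line joining the genotypes on each array. Circles mark arrays with the mutant in Cy3 and squares those with it in Cy5. The lines of MYB7, MYB4 and CCR2 run down towards wild type on all 4 arrays and those of F5H1, DFR, UGT78D1 and 4CL2 run up, while CHS runs down on 3 of 4.

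Of the 8 general phenylpropanoid enzymes, all tested, 3 passed the threshold (37.5%, against 29.8% of all genes). All 3 were lower in the double mutant. Of the 8, 7 had an estimate below 0, with a median log2 ratio of -0.10. Those that fell were PAL2 (AT3G53260), PAL3 (AT5G04230) and 4CL2 (AT3G21240). PAL1 and PAL2 are known as the main forms in lignin and flavonoid synthesis, and 4CL2 as a form of the ligase that acts mainly with 4CL1 in lignin formation.

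4CL2 had the largest difference of the 8. It had signals of 311, 348, 329 and 315 units in the double mutant, against 398, 385, 391 and 341 in wild type. The mutant was lower on every array, and the ranges overlapped by a few units through replicate 2 in the mutant and replicate 4 in wild type. The fitted log2 ratio was -0.22 ± 0.03 (SE, n = 4 arrays), 1.16-fold lower, at an adjusted p of 0.0039 in limma. The estimate was -0.48 with Feature Extraction's processed signals, and the call was lost without the dye term or with median centring.

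PAL3 had array log2 ratios of -0.20, -0.27, 0.04 and -0.41, with a fitted value of -0.21 ± 0.05 (SE, n = 4 arrays; limma adjusted p = 0.016). Replicate 3 stood apart from the others by its sign, and the estimate without replicate 1 was -0.15 and no longer past the threshold. PAL2 was at -0.13 ± 0.04 (limma adjusted p = 0.038), and was above 0 on replicate 2 alone. The remaining enzymes did not pass. C4H (AT2G30490), the P450 that acts after PAL, was below 0 on all 4 arrays, at -0.11 ± 0.04 (limma adjusted p = 0.056). PAL1 was at -0.06, 4CL3 at -0.06 and PAL4 at 0.04. 4CL1 was at -0.08, with its arrays divided by dye: -0.35 and -0.23 with the mutant in Cy3, and 0.15 and 0.09 with it in Cy5. 4CL1 was the 1 member with a second probe, which stood well above background on none of the arrays. Probes for the PAL, 4CL, CAD, UGT78D and MYB families may also take up transcript of close relatives, and their part in these ratios was not tested.

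Among the early flavonoid enzymes, which build the flavonoid skeleton for both flavonols and anthocyanins, CHS (AT5G13930) rose and the other 4 did not pass. The share past the threshold was 20%, against 29.8% of all genes. CHS carries out the first committed step. It had signals of 5024, 5399, 4807 and 2855 units in the double mutant, against 3914, 4419.9, 3605 and 3004 in wild type. The mutant was higher on replicates 1 to 3 and slightly lower on replicate 4, where both genotypes were dimmest. The fitted log2 ratio was 0.25 ± 0.06 (SE, n = 4 arrays), 1.19-fold higher, at an adjusted p of 0.016 in limma. The call was lost with processed signals, with median centring (estimate 0.17), without the dye term, with the median-centred series values and without replicate 1 or 3, and the estimate was 0.16 without replicate 2.

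F3H (AT3G51240), the hydroxylase that makes dihydroflavonols, had a similar set of array ratios, at 0.18, 0.23, 0.39 and -0.11, with a fitted value of 0.17 ± 0.06 that did not pass (limma adjusted p = 0.069). Chalcone isomerase CHI was at -0.10, the chalcone isomerase-like protein CHIL at -0.04 and the B-ring hydroxylase F3'H at 0.03, none of them past the threshold. The median over the 5 enzymes was 0.03.

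In the flavonol branch 2 of 4 tested genes rose and 1 fell (75% past the threshold, against 29.8% of all genes), with a median of -0.0036. UGT78D1 (AT1G30530), which adds rhamnose to the flavonol 3 position, had the largest difference. Its signals were 1693, 1526, 1582 and 1515 units in the double mutant, against 1745, 1779.6, 1635 and 1833 in wild type. The mutant was lower on every array, although the ranges overlapped. The fitted log2 ratio was -0.15 ± 0.03 (SE, n = 4 arrays), 1.11-fold lower, at an adjusted p of 0.013 in limma. The gap was wider with the mutant in Cy5 (-0.22 and -0.28) than with it in Cy3 (-0.04 and -0.05).

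UGT89C1 (AT1G06000), which adds rhamnose at the flavonol 7 position, rose by 0.15 ± 0.04 (SE, n = 4 arrays; limma adjusted p = 0.021) and was above 0 on all 4 arrays. Flavonol synthase FLS1 (AT5G08640) rose by 0.12 ± 0.04 (limma adjusted p = 0.042), but its dye effect also passed: its ratios were 0.24 and 0.31 with the mutant in Cy3, and 0.01 and -0.09 with it in Cy5. The flavonoid 3-glucosyltransferase UGT78D2 was at -0.13 and did not pass, and UGT78D3 was not well above background in any channel. Without replicate 4, the branch median was 0.04, so the median of this branch had no stable sign.

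Every tested gene of the anthocyanin and proanthocyanidin branch had a ratio below 0 on every array. Of the 4, 3 passed the threshold as lower (75%, against 13.1% of all genes). The median log2 ratio of the branch was -0.18, with array medians from -0.32 to -0.11. DFR (AT5G42800), dihydroflavonol reductase, takes the first step that is specific to anthocyanins and proanthocyanidins. Its signals were 349, 298, 301 and 262 units in the double mutant, against 396, 374, 347 and 349 in wild type. The mutant was lower on every array, by the most on replicate 4, while the highest mutant and the lowest wild-type signals nearly coincided. The fitted log2 ratio was -0.28 ± 0.03 (SE, n = 4 arrays), 1.22-fold lower, at an adjusted p of 0.0011 in limma.

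LDOX (AT4G22880), the dioxygenase that follows DFR, was the next gene of the branch by size. Its signals were 263, 241, 217 and 209 units in the double mutant, against 287, 263, 262 and 277 in wild type, lower on every array and overlapping only where the highest mutant signal met the low end of wild type. The fitted value was -0.23 ± 0.05 (SE, n = 4 arrays), 1.17-fold lower (limma adjusted p = 0.014). The call was lost without replicate 3 (-0.20) and without the dye term. UGT79B1 (AT5G54060), which adds xylose to anthocyanins, was lower at -0.13 ± 0.04 (limma adjusted p = 0.036). UGT75C1 (AT4G14090), the anthocyanin 5-glucosyltransferase, was at -0.08 and did not pass (limma adjusted p = 0.10). BAN (AT1G61720), the reductase that feeds proanthocyanidins in the seed coat, was not well above background in any channel.

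These genes were dim, and the size of their ratios depended on the processing. With normexp at an offset of 0 the branch median was -0.25. With Feature Extraction's processed signals, which differ in background correction and in dye normalization, DFR stood at -0.63, LDOX at -0.58, UGT79B1 at -0.37 and UGT75C1 at -0.47, and UGT75C1 then passed the threshold. The branch median was -0.53 under that setting. Which of these differences in processing moved the values was not tested. The direction was below 0 for all 4 genes in each of the 15 alternatives.

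The activators of the flavonoid branches did not pass. MYB12 (AT2G47460), MYB111 (AT5G49330) and MYB11 (AT3G62610) are known to switch on flavonol genes, PAP1 (AT1G56650) and PAP2 (AT1G66390) to switch on anthocyanin genes, and TT8 (AT4G09820) to act with MYB proteins as a bHLH partner. MYB111 had the largest difference of the 3 tested, with signals of 382, 366, 430.2 and 390.4 units in the double mutant, against 427, 381, 416 and 438 in wild type. The mutant was lower on 3 of 4 arrays and the ranges overlapped, and the fitted value was -0.08 ± 0.04 (SE, n = 4 arrays; limma adjusted p = 0.19), with a 95% interval from -0.19 to 0.02. MYB12 was at -0.03 (interval -0.13 to 0.07) and PAP1 at 0.02 (interval -0.05 to 0.10). MYB11 and PAP2 were not well above background in any channel, and TT8 was so on 1 array in the mutant and 2 in wild type. No difference was thus detected for MYB12, MYB111 and PAP1, which stood well above background in every channel. PAP1 was dim, however, at 195 to 222 units, against 173 to 189 for TT8. The offset in the background correction draws ratios of dim genes towards 0, so the PAP1 interval holds for the reported processing alone. With Feature Extraction's processed signals PAP1 was at -0.04. MYB11, PAP2 and TT8 were too dim to test.

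Lignin genes were divided. Of the 9 enzymes, all tested, 1 rose, 2 fell and 6 did not pass, with a median of -0.02. The share past the threshold, 33.3%, was near the 29.8% of all genes. CCR2, which rose, and F5H1, which fell, were both among the 4 members with a log2 difference of at least 0.3.

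CCR2 (AT1G80820) encodes a cinnamoyl-CoA reductase known for its induction by pathogens, whereas CCR1 (AT1G15950) is the form that acts in developmental lignification. CCR2 had signals of 697, 709.7, 619 and 674 units in the double mutant, against 588, 511, 393 and 469 in wild type. The ranges did not overlap. The array log2 ratios were 0.24, 0.47, 0.65 and 0.52, with a fitted value of 0.47 ± 0.06 (SE, n = 4 arrays), 1.39-fold higher, at an adjusted p of 0.0017 in limma. CCR1 had a fitted value of -0.04 ± 0.04 and was above 0 on 2 of 4 arrays. Within each array the ratio of CCR2 exceeded that of CCR1, by 0.51 ± 0.20 on the log2 scale (mean ± SD, n = 4 arrays). This pair was chosen after its values were seen and the difference was not tested. With processed signals the CCR2 ratio was 0.72.

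F5H1 (AT4G36220), ferulate 5-hydroxylase, directs intermediates towards syringyl lignin and sinapate esters. Its signals were 3469.6, 3050.4, 3106 and 3074 units in the double mutant, against 4389, 4036, 3639.6 and 4294 in wild type. No mutant signal reached the lowest wild-type signal, that of replicate 3. The array log2 ratios were -0.34, -0.40, -0.23 and -0.48, with a fitted value of -0.36 ± 0.04 (SE, n = 4 arrays), 1.29-fold lower, at an adjusted p of 0.0005 in limma. This was the lowest reported estimate among the tested members, at rank 180 from the lowest of all genes. With Feature Extraction's processed signals F5H1 was at -0.39, and DFR, LDOX, 4CL2 and UGT75C1 were lower.

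C3'H (AT2G40890), the P450 that hydroxylates the shikimate ester made by HCT, fell by 0.17 ± 0.04 (SE, n = 4 arrays; limma adjusted p = 0.019), with replicate 3 at 0.03 and the other arrays between -0.31 and -0.16. COMT1 (AT5G54160), a methyltransferase of the same late steps as F5H1, was fitted from 3 arrays, since its spot on replicate 4 was marked as an outlier. It was at 0.13 ± 0.04 and did not pass (limma adjusted p = 0.070). With outlier-marked spots kept it was at 0.14 and passed (limma adjusted p = 0.020). Its signals did not overlap, at 37664 to 38809.9 in the double mutant and 31805 to 37435 in wild type, with the marked spot included. HCT, also from 3 arrays, was at -0.0089, CCoAOMT1 at 0.05, CAD5 at -0.05 and CAD4 at -0.02, none past the threshold. CAD5, like 4CL1, was divided by dye, at -0.18 and -0.30 with the mutant in Cy3 and at 0.17 and 0.11 with it in Cy5.

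**Figure D3:**
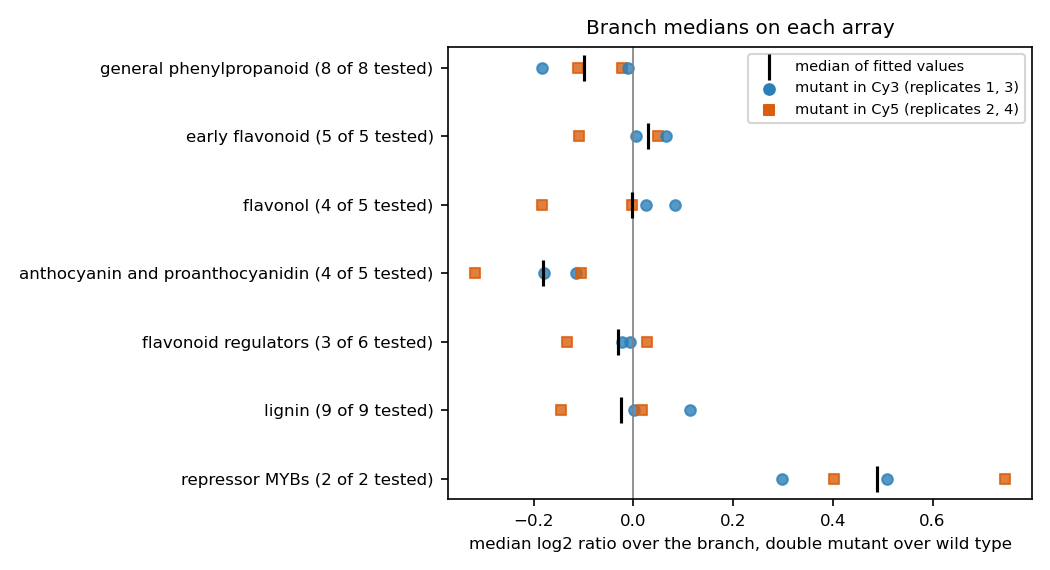
Median log2 ratio of double mutant over wild type over the tested genes of each branch (rows), on each array (circles, mutant in Cy3, and squares, mutant in Cy5) and from the fitted values (black ticks). The anthocyanin and proanthocyanidin medians lie between -0.32 and -0.11 on the 4 arrays and those of the repressor MYBs between 0.30 and 0.75, the general phenylpropanoid medians are below 0 on all 4 arrays, and those of the remaining branches cross 0.

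Set side by side within each array, the anthocyanin and proanthocyanidin median was below that of lignin on all 4 arrays, by 0.12, 0.12, 0.29 and 0.17 on the log2 scale. It was below the flavonol median by 0.14, 0.10, 0.26 and 0.13, and below the early flavonoid median by 0.12, 0.15, 0.24 and 0.21. Against general phenylpropanoid genes the order differed on replicate 1. There the general phenylpropanoid median was the lower, and on the other arrays the anthocyanin median was lower by 0.08, 0.17 and 0.21. The genes of a branch share arrays and a pathway, so these medians describe the branches and were not tested. DFR and FLS1 draw on the same dihydroflavonols. The ratio of DFR was below that of FLS1 on every array, by 0.42, 0.34, 0.52 and 0.33, a pair chosen after its values were seen.

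Genes around these branches were taken from 7 further lists of 55 loci, of which 43 were tested. Like the members, these lists were chosen with earlier results of these data known. Of the 43 tested, 11 were higher and 9 lower, or 46.5% past the threshold, against 29.8% of all genes. By list the share was 25% for other monolignol enzymes, and 33.3% for PAL turnover and for lignin regulators. It was 50% for other flavonoid regulators, for lignin polymerisation and for sinapate and coumarin, and 100% for flavonoid transport and modification. Their median log2 ratio was 0.02, against 0.00065 over all genes.

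Other flavonoid regulators gave 2 higher and 3 lower genes of 10 tested. SPL9, known to hold back anthocyanin synthesis by disturbing the MYB and bHLH complex, fell by 0.31 ± 0.04, with a limma adjusted p of 0.0016. LBD39, a nitrate-induced repressor of anthocyanin genes, fell by 0.30 ± 0.05 (limma adjusted p = 0.0032), but its dye effect passed as well and replicate 1 was at 0.13. MYBL2, an inhibitor of anthocyanin synthesis, rose by 0.22 ± 0.04 and was above 0 on all 4 arrays. MYB3, another repressor from the subgroup of MYB4, rose by 0.27 ± 0.03, with arrays at 0.11, 0.46, 0.11 and 0.41.

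In the list of flavonoid transport and modification, 2 genes rose and 2 fell of 4 tested. TT19, a glutathione S-transferase needed for anthocyanin to reach the vacuole, fell by 0.31 ± 0.04 and was below 0 on all 4 arrays, at -0.17, -0.34, -0.39 and -0.34. Rhamnose synthase RHM1, which supplies the sugar for flavonol rhamnosides, rose by 0.30 ± 0.05 from 3 arrays and had a dye effect that passed. Of 3 tested F-box genes of PAL turnover, KFB01 rose by 0.11 ± 0.03 and the other two did not pass. The KFB01 call was lost in 10 of 15 alternatives.

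Among other monolignol enzymes 1 of 8 rose and 1 fell. CCoAOMT7, a methyltransferase, rose by 0.20 ± 0.03 with arrays between 0.16 and 0.23, and CAD7 fell by 0.13 ± 0.04, with a limma adjusted p of 0.049. In the lignin polymerisation list 2 of 4 rose. ESB1, a dirigent-domain protein that places lignin in the Casparian strip, rose by 0.44 ± 0.05 (limma adjusted p = 0.0012) with arrays at 0.47, 0.47, 0.62 and 0.18, and the laccase LAC4 rose by 0.13 ± 0.04. Of 6 lignin regulators tested 2 rose. MYB32, a further repressor from the subgroup of MYB4, rose by 0.30 ± 0.04 with arrays at 0.21, 0.30, 0.29 and 0.40, and MYB85, an activator of lignin genes, rose by 0.15 ± 0.05. In the sinapate and coumarin list 1 of 8 rose and 3 fell. F6'H1, which makes the precursor of the coumarin scopoletin, fell by 0.48 ± 0.04 (limma adjusted p = 0.0002) with arrays between -0.55 and -0.41. UGT72E3, which attaches glucose to monolignols, rose by 0.18 ± 0.04.

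Putting the members and the further genes together, the 4 MYB repressors of the subgroup of MYB4 on the lists were MYB4, MYB7, MYB32 and MYB3. All 4 passed as higher, as did 16.6% of all genes. Their ratios lay between 0.27 and 0.65, and each was above 0 on all 4 arrays. These 4 were grouped after their values had been seen, and 3 of the 4 had a dye effect that passed.

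**Figure D4:**
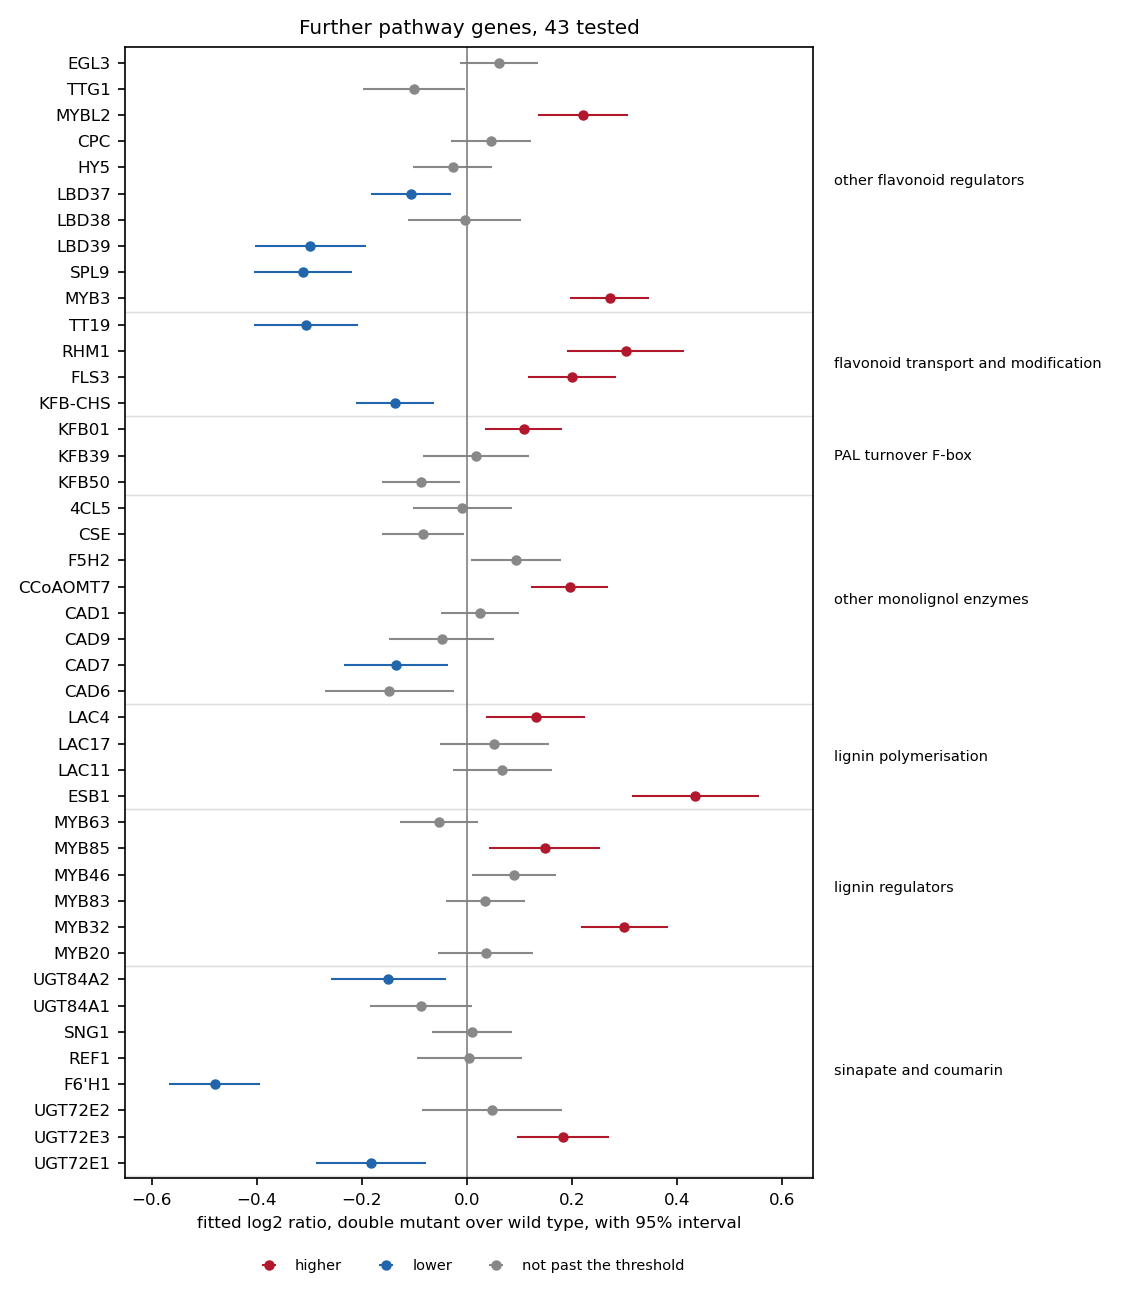
Fitted log2 ratio of double mutant over wild type (points) with its 95% interval (bars) for the 43 tested genes of the further lists, named at the right. Red marks the 11 genes past the threshold as higher, blue the 9 as lower and grey the rest. F6'H1 at -0.48 and ESB1 at 0.44 are the extremes.

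Markers of root tissue moved with genotype beside these genes. Of the 7 root markers 6 were higher in the double mutant (85.7%, against 16.6% of all genes) and none was lower. Their median log2 ratio was 0.36, and 5 were above 0 on all 4 arrays. A dye effect passed for 4 of the 7 root markers, CASP2, EXPA18 and SCR among them. The Casparian strip genes CASP1 and CASP2 were at 0.48 and 0.36, the root hair gene COBL9 at 0.48 and EXPA18 at 0.35, while SCR, at -0.06, did not pass. The part of root tissue in the ratios of CCR2, ESB1, the MYB repressors and the other members was not tested. Of the 6 green tissue markers 1 was higher and 3 were lower (66.7% past the threshold, against 29.8% of all genes), with a median of -0.13. A dye effect passed for 5 of the 6. None of the 2 tested seed markers passed.

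**Figure D5:**
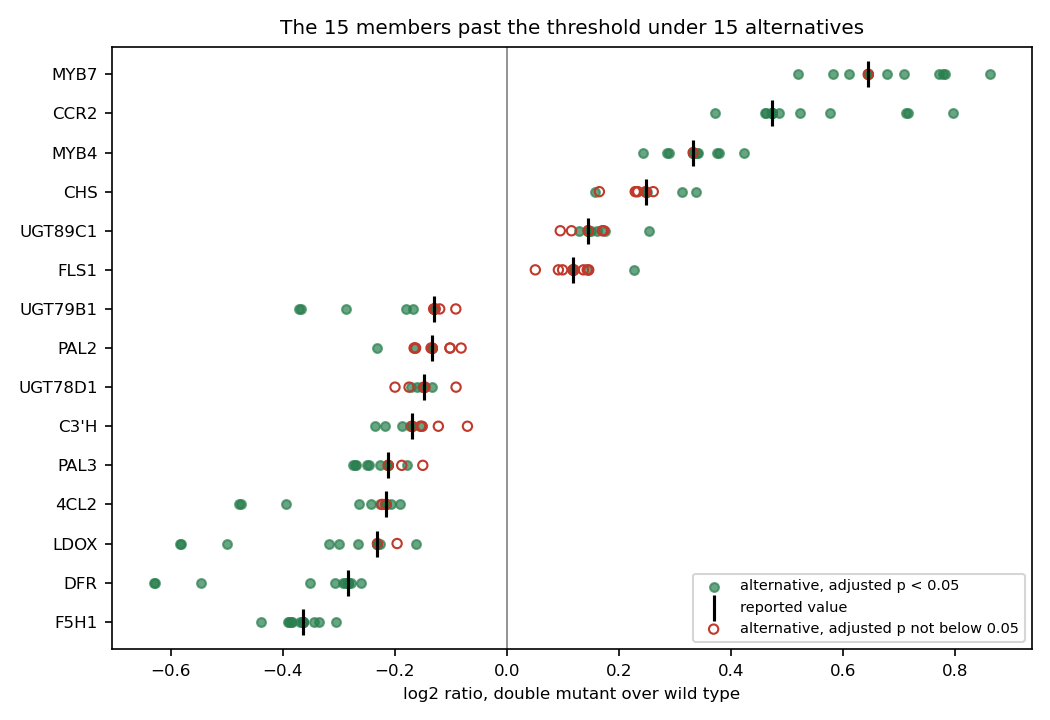
Log2 ratio of double mutant over wild type for the 15 members past the threshold under 15 alternative settings. Black ticks are the reported values, filled points alternatives with an adjusted p under 0.05 and open points alternatives without. CCR2, DFR and F5H1 have filled points only, and no gene crosses 0.

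The calls differed in how far they depended on the processing. CCR2, DFR and F5H1 kept their direction and their side of the threshold in all 15 alternatives. MYB4 and MYB7 missed the threshold in 1 alternative, the fit without a dye term. The smaller differences lost their calls more often, in 5 alternatives for C3'H and UGT79B1, 6 for UGT78D1, UGT89C1 and CHS, 8 for PAL2 and 9 for FLS1. Leaving out replicate 1 ended the calls of PAL2, PAL3, CHS, FLS1, UGT78D1, UGT79B1 and C3'H, replicate 2 that of FLS1, replicate 3 those of PAL2, CHS, FLS1, UGT78D1, UGT89C1, LDOX and UGT79B1, and replicate 4 those of PAL2 and UGT79B1. Among the further genes named, SPL9, TT19, ESB1, MYB32 and F6'H1 kept their calls in all 15 alternatives, and MYB3, MYBL2, LBD39, RHM1, CCoAOMT7, CAD7, LAC4, MYB85 and UGT72E3 each lost the call in at least 1. Calls were also gained: UGT75C1 passed in 4 of 15 alternatives, C4H in 3, F3H in 2 and UGT78D2 in 1. COMT1 passed in 3 of the 11 alternatives in which it was fitted. The 20 tested members that did not pass had estimates between -0.13 and 0.17, and their 95% intervals lay between -0.24 and 0.31. These bounds hold for the reported processing, whose offset draws ratios of dim genes towards 0. They do not bound the differences under other settings. UGT75C1, among these members, was at -0.47 with Feature Extraction's processed signals.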

How the data were processed

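Median spot signals and local backgrounds are intensity values (arbitrary units) that the authors deposited as scanner output, not normalised. Agilent Feature Extraction 9.1.3.1 is named in the submitters' processing notes. The deposited files also hold Feature Extraction's processed signals, intensity values with background subtracted and dyes normalised, and a log10 ratio of red over green computed from them, per the file headers. The authors' deposited series values equalled the natural log of double mutant over wild type from the processed signals on each array (absolute r = 1), without further centring (medians 0.0458, 0.0813, 0.107 and -0.0011 for replicates 1 to 4).

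Median signals were corrected by normexp (offset 50, which draws ratios of dim genes towards 0) and normalised by loess within each array. Control and outlier-marked spots had weight 0 there, and the outliers (190 to 399 of 37685 spots) were then left out. Probes needed at least 3 ratios and a signal well above background in all 4 channels of either genotype, and the brightest probe stood for its locus. Each log2 ratio was fitted with a dye effect per gene in limma 3.58.1 under R 4.3.3, followed by eBayes and Benjamini-Hochberg adjustment over 19314 loci, two-sided, at 0.05. The code was tested on simulated data. The share of false calls there stayed around the threshold when gene variances were drawn from limma's fitted prior, the setting adopted after a first version had given more. It lay above the threshold when the variances were the shrunken estimates of the fit. Which setting is nearer to these arrays was not tested, so the calls may hold more false ones than the threshold states. Alternatives covered background, normalization, dye term, filters, source of values, a separate-channel fit and leaving out each replicate. Slide and scan were the same for all arrays and could not be used as a block.

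The members and gene lists were chosen with earlier results of these data known. Full values are given for members past the threshold with an absolute log2 ratio of at least 0.3 and for the largest in each branch, and further genes are the largest 2 per list past the threshold. LDOX, PAL3, C3'H, MYB3 and MYBL2 were described in more detail after their values were seen. All 40 members matched a RefSeq gene table (assembly TAIR10.1), from which names alone were taken. The single values of 1 root marker are not reported here.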

Additional observations from a re-analysis of the deposited data

Results flagged for a closer look

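Among the 33 members with ratios on all 4 arrays, the array values of 2 held a single array far from the other three. UGT79B1 was at -0.23 on replicate 4, and its gap to the nearest array was 0.86 of the range over the 4 arrays. UGT75C1 was at -0.15 on replicate 3, with a gap of 0.86 of its range. Chance marks about 1 in 20 groups of this size. Both genes are dim, and in both all arrays lay below 0.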

How the results depend on the processing

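No member past the threshold changed direction in any of the 15 alternatives, and 3 of these 15 members (CCR2, DFR and F5H1) kept their call in all of them. Over all genes, 1826 passed without the dye term, 2547 with median centring and 3616 with the median-centred series values, against 5747 as reported. Members called higher numbered 3 with Feature Extraction's processed signals, with median centring and with the median-centred series values, and 1 without the dye term, against 6. Members called lower numbered 2 without the dye term, against 9. Further pathway genes called numbered 7 without the dye term, 13 with processed signals, 8 with median centring and 12 with the median-centred series values, against 20. The anthocyanin median was -0.53 with processed signals, -0.45 with the series values as given and -0.53 after their centring, the general phenylpropanoid median was -0.20 with median centring, and the early flavonoid median was 0.11 with the series values as given. The cause of these shifts was not tested.

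Without 1 replicate, calls ranged from 2194 (without replicate 3) to 5809 (without replicate 2) over all genes, with 3268 without replicate 1. Members called higher ranged from 3 (without replicate 3) to 8 (without replicate 4), members called lower from 4 (without replicate 1) to 11 (without replicate 2), with 5 without replicate 3, and further pathway genes called from 11 (without replicate 1 or 3) to 19. Fits without a replicate used 3 arrays, with 2 of one orientation and 1 of the other. HCT and COMT1 could be refitted only without replicate 4. The medians of the flavonol, regulator and lignin genes lay near 0 and changed sign in some alternatives. Among called members, PAL2, C3'H, FLS1, UGT89C1, UGT78D1, UGT79B1 and CHS each lost the call in at least 5 alternatives.

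Every ratio was paired, since each array carried both genotypes. Only 1 group of arrays exists, so no pairing between groups of arrays was possible. Dim probes limit the anthocyanin genes and their regulators, whose signals lay close to background.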
